A study of Mus musculus with 46 samples.

Results

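Dermatopontin (Dpt) and 8 small leucine-rich proteoglycans, decorin (Dcn), lumican (Lum), biglycan (Bgn), fibromodulin (Fmod), osteoglycin (Ogn), osteomodulin (Omd), Prelp and asporin (Aspn), were followed by RNA-seq while mouse fibroblasts were reprogrammed. The 9 genes were taken by symbol from a table of 37108 genes. They were chosen by the measured levels of Dpt, which at D5 and D12 was among the genes lowest with the Nanog fusion relative to native Nanog, so values of those days are given as a description without a test. Mouse embryonic fibroblasts (MEF) carrying an Oct4-GFP reporter (OG2) received retroviral Oct4 with either native Nanog (NanogWT, labelled Nanog+Oct4) or Nanog joined at its N-terminus to the BRG1-interacting domain of SS18, a BAF subunit (NanogBiD, labelled NanogN70+Oct4). Per the study's methods, D0 followed 2 rounds of infection, so both combinations had viral Oct4 and the same media, with a change to N2B27 medium with 2 inhibitors and LIF (2iL) around D7. Libraries were made from D0 to D12 at 8 time points, with 2 replicates per combination and day apart from NanogBiD at D8 with 1, which gave 31. Untransduced MEF (2 libraries), OG2 mouse embryonic stem cells (mES, 1 library) and 12 samples of induced pluripotent stem cells (iPSC, 6 per combination, labelled iPSC1 or iPSC2, with a clone number shared by 2 of the NanogWT samples) served as references. The MEF came, per the methods, from mid-gestation embryos of either sex sired by OG2 males. No source used here says that replicates of the RNA-seq came from separate animals or cultures, so p-values measure the spread between these samples, which may be technical.

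Small leucine-rich proteoglycans are secreted proteins of the connective tissue matrix whose leucine-rich repeats bind collagen and set how fibrils assemble and space. Decorin and biglycan carry chondroitin or dermatan sulphate chains, lumican, fibromodulin and osteomodulin can carry keratan sulphate, and asporin and Prelp are mostly found without such chains. Dermatopontin is not a member of that family but a small tyrosine-rich matrix protein that binds decorin and promotes fibril formation. Fibroblasts, and cells of bone, cartilage and tendon, are the usual sources, and pluripotent cells make little of any of them.

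The genes lie in small groups on the mouse genome (RefSeq annotation, GRCm38.p6, the assembly that mm10 denotes). Dcn (chr10:97479500-97518163) and Lum (chr10:97565501-97572703) are neighbours, and Aspn (chr13:49544443-49567565), Omd (chr13:49582462-49592612) and Ogn (chr13:49608015-49624501) follow each other on one strand. Prelp (chr1:133910304-133930102) and Fmod (chr1:134037254-134048280) share chromosome 1 with Dpt (chr1:164796663-164824274), and Bgn is X-linked (chrX:73483601-73495936). All of Aspn, Omd and Ogn sits within the antisense gene Cenpp, and the first part of Dpt is overlapped by the antisense lncRNA Gm32569, so without strand in the counting these reads cannot be told apart. Cenpp stayed between 0.273 and 4.52 FPKM in every library of the gene table (FPKM, fragments per kilobase of transcript scaled to sequencing depth), while Gm32569 is taken up beside Dpt.

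Promoter sequences are shown for Dpt, the gene that set the choice, and for the chromosome 13 neighbours, of which Aspn and Ogn moved alike. Each run holds 250 bases before the RefSeq start, written 5′ to 3′ on the gene's strand in lower case, with matches to the letters TATAAA (those of a TATA box) or GGAATG (bound by TEAD factors), on either strand, in capitals. Counted from the start, the TATAAA matches began at -207 and -178 in Aspn and at -229 and -227 in Ogn. Whether they act as core promoter elements was not tested. In Ogn the first capital run is a pair of overlapping TATAAA matches, 1 per strand.
Dpt, chr1:164796413-164796662, + strand: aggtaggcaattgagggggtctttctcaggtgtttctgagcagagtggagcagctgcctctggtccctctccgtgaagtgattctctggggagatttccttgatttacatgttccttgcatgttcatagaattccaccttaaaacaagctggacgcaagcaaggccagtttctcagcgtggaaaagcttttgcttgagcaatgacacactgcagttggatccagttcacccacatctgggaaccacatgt
Aspn, chr13:49544193-49544442, + strand: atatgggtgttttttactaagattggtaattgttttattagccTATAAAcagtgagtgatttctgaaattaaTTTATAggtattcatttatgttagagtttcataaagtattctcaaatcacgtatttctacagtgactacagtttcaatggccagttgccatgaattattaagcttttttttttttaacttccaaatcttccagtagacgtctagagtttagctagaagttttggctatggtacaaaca
Omd, chr13:49582212-49582461, + strand: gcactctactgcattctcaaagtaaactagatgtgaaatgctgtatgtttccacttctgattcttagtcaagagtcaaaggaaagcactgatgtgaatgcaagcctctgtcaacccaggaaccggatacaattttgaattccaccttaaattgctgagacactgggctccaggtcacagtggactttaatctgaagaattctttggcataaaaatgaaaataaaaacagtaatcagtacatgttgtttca
Ogn, chr13:49607765-49608014, + strand: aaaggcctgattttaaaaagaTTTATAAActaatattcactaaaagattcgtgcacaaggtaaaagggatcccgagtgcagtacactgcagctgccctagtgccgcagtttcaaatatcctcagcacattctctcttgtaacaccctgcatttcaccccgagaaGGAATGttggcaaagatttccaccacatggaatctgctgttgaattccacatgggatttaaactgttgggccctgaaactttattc

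Of the 9 genes, 7 were found in the RefSeq promoter table (not Dcn and Lum). TATAAA occurred in Aspn and Ogn and in 12.4% of all 32851 promoter windows, and GGAATG in Ogn and in 12.6%. Neither the AP-1 letters TGANTCA (6.75% of all windows) nor the SMAD-binding element GTCTAGAC (0.167%) were in these 7 windows. The Aspn promoter had 30.0% G and C, lower than all but 1.47% of windows, Ogn had 42.0%, Omd 38.4%, Dpt 48.8%, and Bgn was at the other end with 64.4%.

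Relative depth, read from the value of 1 read in low genes, was 0.813 to 1.10 in all libraries of NanogBiD and in a range of 0.875 to 1.06 for NanogWT up to D7, but 1.86 to 3.19 for NanogWT from D8 on. From D8 the combination and the depth cannot be told apart. Within NanogWT, steps from D7 to later days also span the change of medium. Time, medium and depth cannot be told apart in those steps. Replicates of a group correlated across genes at r = 0.961 to 0.990. The summed level of 9 fibroblast markers (Thy1, Pdgfra, Pdgfrb, Prrx1, Twist1, Twist2, Col1a1, Col1a2 and Col3a1) was 5701 to 6684 FPKM in MEF and 11.8 FPKM in mES, where Prrx1 was listed at 0. It fell in both combinations to 248 to 394 FPKM with NanogBiD and 536 to 600 FPKM with NanogWT at D7, and stood at 370 to 452 FPKM with NanogBiD and 2733 to 2735 FPKM with NanogWT at D10. In such bulk samples fewer cells of a type and less RNA per cell cannot be told apart.

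Dpt stayed below 1 FPKM along the whole NanogBiD path and climbed along the NanogWT path. With NanogBiD its level was 0.0752 and 0.300 FPKM at D0, 0.145 and 0.0351 FPKM at D1, 0.189 and 0.392 FPKM at D3, 0.137 and 0.150 FPKM at D7, 0.444 FPKM at D8 and 0.247 and 0.455 FPKM at D10. With NanogWT it was 0.206 and 0.658 FPKM at D0, 1.07 and 1.67 FPKM at D1, 6.69 and 8.15 FPKM at D3, 15.1 and 20.6 FPKM at D7, 75.5 and 105 FPKM at D8 and 215 and 174 FPKM at D10. The chosen days gave 0.265 and 0.429 against 13.2 and 24.9 FPKM at D5, and 0.279 and 0.883 against 197 and 194 FPKM at D12. Only D0 overlapped between the combinations. Here and below, libraries that are apart are a description of at most 2 libraries a side. The share of all genes that were apart in this way is not given. Starting MEF held little Dpt, 2.57 and 0.391 FPKM, and mES was listed at 0. Both NanogWT libraries of D10 were above both MEF libraries.

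The difference (NanogBiD minus NanogWT, on the log2(FPKM + 1) scale, which understates changes of low genes) was -0.26 (SE 0.26, limma adjusted p = 0.702) at D0. It widened to -1.11 (SE 0.26, adjusted p = 0.0203) at D1, -2.71 (SE 0.26, adjusted p = 8.63e-07) at D3, -4.03 (SE 0.26, adjusted p = 1.11e-09) at D7 and -7.18 (SE 0.26, adjusted p = 2.24e-13) at D10. At D10 no tested gene of 16842 had a lower value, and the ratio of mean levels was 555-fold, over a NanogBiD mean of only 0.351 FPKM. D7 and D10 lie between the days that chose Dpt, so its values and rank there are not independent of the choice. In the time course Dpt reached 1 FPKM only in NanogWT libraries, so it passed the filter on low values through the group where it is high. On the chosen days the difference was -3.83 at D5 and -6.98 at D12. The D1 call did not hold when any single D1 library was left out (adjusted p = 0.0533 without NanogWT replicate 1 to 0.194 without NanogWT replicate 2, with 0.103 and 0.130 without NanogBiD replicates 1 and 2).

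Within NanogWT, Dpt rose by 3.72 (SE 0.26, adjusted p = 7.83e-10) from D0 to D7 and by another 3.38 (SE 0.26, adjusted p = 1.40e-08) from D7 to D10. Within NanogBiD the same steps were -0.05 (SE 0.26, adjusted p = 0.910) and 0.24 (SE 0.26, adjusted p = 0.501). Tested directly, the change differed between the combinations by -3.77 (SE 0.36, adjusted p = 1.04e-06) over D0 to D7 and by -3.15 (SE 0.36, adjusted p = 5.67e-06) over D7 to D10. Both steps use D7, which lies between the chosen days, and Dpt passed the filter through NanogWT libraries alone. These p-values are therefore not independent of the choice. The overlapping lncRNA Gm32569 followed the same course, with 30.8 to 40.6 FPKM in NanogWT at D10 and at most 0.0470 FPKM in NanogBiD at D10.

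**Figure D1:**
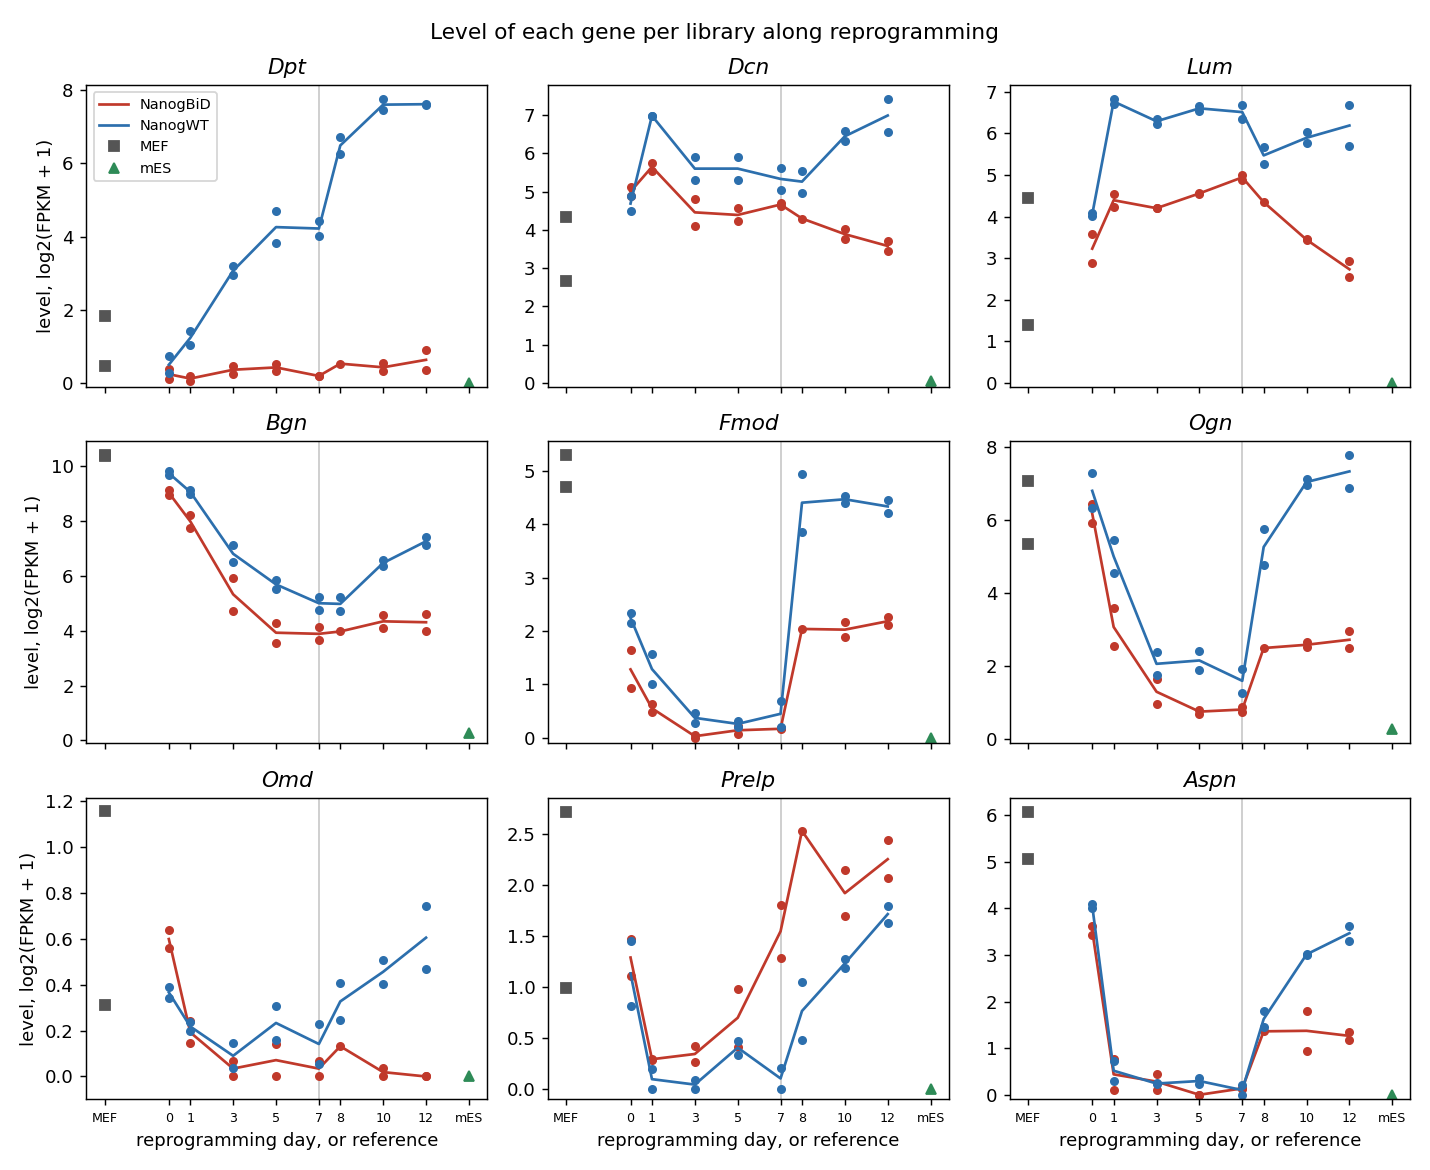
Level of each of the 9 genes, as log2(FPKM + 1), in every library by reprogramming day (points are libraries, lines join group means, the grey line marks D7), with MEF and mES at the sides. Dpt stays near 0 with NanogBiD and climbs with NanogWT, while Fmod, Ogn and Aspn fall by D7 in both combinations and rebound mainly with NanogWT.

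Decorin and lumican, neighbours on chromosome 10, were both lower with NanogBiD at D1, D3 and D10. Dcn stood at 33.7 and 28.6 FPKM with NanogBiD and 28.7 and 21.4 FPKM with NanogWT at D0, and at 45.8 and 52.8 against 126 and 125 FPKM at D1. The combinations overlapped at D0 and were apart at each later day. At D3 Dcn was at 16.2 and 27.2 against 38.6 and 58.5 FPKM, at D7 at 23.9 and 24.8 against 31.9 and 48.3 FPKM, and at D10 at 15.1 and 12.6 against 78.9 and 94.4 FPKM. Values of D5 (17.7 and 22.6 against 38.5 and 58.7 FPKM) and D12 (9.99 and 12.0 against 93.4 and 170 FPKM) lay the same way. Dcn was highest at D1 along the NanogBiD path and, by mean level, at D12 along the NanogWT path.

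For Dcn the difference was 0.31 (SE 0.30, limma adjusted p = 0.680) at D0, -1.34 (SE 0.30, adjusted p = 0.0161) at D1, -1.14 (SE 0.30, adjusted p = 0.0180) at D3, -0.67 (SE 0.30, adjusted p = 0.107) at D7 and -2.56 (SE 0.30, adjusted p = 6.69e-07) at D10. The D1 call was lost with any of the 4 D1 libraries left out (adjusted p = 0.0578 without NanogBiD replicate 2, 0.161 without NanogBiD replicate 1, 0.115 and 0.0950 without NanogWT replicates 1 and 2). The D3 call was lost without NanogBiD replicate 1 (adjusted p = 0.216) or NanogWT replicate 2 (adjusted p = 0.231). From D7 to D10 Dcn rose with NanogWT by 1.12 (SE 0.30, adjusted p = 0.00968), although not without NanogWT D7 replicate 1 (adjusted p = 0.120) or D10 replicate 2 (adjusted p = 0.0848), and with NanogBiD the change was -0.78 (SE 0.30, adjusted p = 0.0469, under 2-fold). That change differed between the combinations by -1.89 (SE 0.42, adjusted p = 0.00282).

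Lum rose from D0 to D7 in both combinations and was lower with NanogBiD at D1, D3, D7 and D10. It stood at 10.9 and 6.32 FPKM with NanogBiD and 15.2 and 15.9 FPKM with NanogWT at D0, at 17.9 and 22.3 against 113 and 104 FPKM at D1, and at 17.4 and 17.3 against 74.4 and 80.7 FPKM at D3. At D7 the values were 31.2 and 28.4 against 80.1 and 102 FPKM, and at D10 10.0 and 9.73 against 53.5 and 64.1 FPKM. No day showed an overlap between the combinations, D5 (22.8 and 22.2 against 101 and 92.0 FPKM) and D12 (4.81 and 6.57 against 51.3 and 101 FPKM) included.

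The Lum difference was -0.83 (SE 0.25, limma adjusted p = 0.0950) at D0, -2.38 (SE 0.25, adjusted p = 1.09e-05) at D1, -2.09 (SE 0.25, adjusted p = 1.09e-05) at D3, -1.57 (SE 0.25, adjusted p = 8.13e-05) at D7 and -2.46 (SE 0.25, adjusted p = 1.07e-07) at D10. From D0 to D7 the rise was 1.72 (SE 0.25, adjusted p = 1.34e-05) with NanogBiD and 2.46 (SE 0.25, adjusted p = 1.28e-07) with NanogWT, and these did not differ past the threshold (-0.75, SE 0.35, adjusted p = 0.167). From D7 to D10 Lum fell with NanogBiD by 1.50 on the log2 scale (SE 0.25, adjusted p = 7.99e-05) and changed by -0.62 (SE 0.25, adjusted p = 0.0797) with NanogWT, again without a difference that passed (-0.88, SE 0.35, adjusted p = 0.0743).

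Biglycan was the most abundant of the 9 in MEF, at 1359 and 1345 FPKM, and fell in both combinations. At D0 it was at 493 and 558 FPKM with NanogBiD and 823 and 902 FPKM with NanogWT, at D1 at 216 and 300 against 505 and 569 FPKM, and at D3 at 25.3 and 60.6 against 89.8 and 138 FPKM. By D7 it had reached 11.6 and 16.4 against 26.3 and 36.8 FPKM. NanogWT libraries were higher on each day. At D10 the levels were 22.8 and 16.3 against 80.7 and 95.9 FPKM, and at D12, as a description, 15.0 and 23.7 against 138 and 170 FPKM.

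From D0 to D7 Bgn fell in both combinations, with a change of -5.15 (SE 0.35, limma adjusted p = 5.49e-10) with NanogBiD and -4.75 (SE 0.35, adjusted p = 1.55e-09) with NanogWT on the log2 scale, a difference of -0.40 (SE 0.49, adjusted p = 0.648). The subsequent change to D10 was 0.46 (SE 0.35, adjusted p = 0.317) with NanogBiD and a rise of 1.47 (SE 0.35, adjusted p = 0.00372) with NanogWT, which was not called without NanogWT D7 replicate 1 (adjusted p = 0.0505). The difference between these changes was -1.01 (SE 0.49, adjusted p = 0.145). Between the combinations Bgn differed by -0.71 (SE 0.35, adjusted p = 0.323) at D0, -1.07 (SE 0.35, adjusted p = 0.113) at D1, -1.48 (SE 0.35, adjusted p = 0.00836) at D3, -1.12 (SE 0.35, adjusted p = 0.0199) at D7 and -2.13 (SE 0.35, adjusted p = 3.22e-05) at D10. The D3 call was lost without NanogBiD replicate 1 (adjusted p = 0.175) or NanogWT replicate 2 (adjusted p = 0.134), and the D7 call likewise without NanogBiD replicate 1 (adjusted p = 0.147) or NanogWT replicate 2 (adjusted p = 0.157) and in a fit of the 2 D7 groups alone (adjusted p = 0.0756).

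Fibromodulin, osteoglycin and asporin shut down early in both combinations and came back after D7, much further with NanogWT. Ogn was at 60.3 and 85.7 FPKM with NanogBiD and 79.3 and 156 FPKM with NanogWT at D0, at 4.93 and 11.1 against 22.7 and 43.1 FPKM at D1, and at 0.684 and 0.848 against 1.42 and 2.83 FPKM at D7. It then stood at 4.67 against 26.4 and 53.5 FPKM at D8 and at 5.31 and 4.77 against 123 and 141 FPKM at D10. NanogWT libraries at D10 were back in the range of MEF, 135 and 40.2 FPKM, or slightly above it, and NanogBiD libraries were below it. D12 gave 4.65 and 6.80 against 118 and 221 FPKM.

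Ogn changed from D0 to D7 by -5.37 (SE 0.43, limma adjusted p = 5.73e-09) with NanogBiD and -5.20 (SE 0.43, adjusted p = 7.78e-09) with NanogWT. Its rise from D7 to D10 was 1.77 (SE 0.43, adjusted p = 0.00260) and 5.45 (SE 0.43, adjusted p = 2.04e-08), the latter the largest rise of the 16842 tested genes in that contrast. That NanogWT step spans the changes of medium and of depth. The rises differed by -3.67 (SE 0.60, adjusted p = 0.000201). Ogn differed between the combinations by -0.62 (SE 0.43, adjusted p = 0.516) at D0, -1.93 (SE 0.43, adjusted p = 0.0147) at D1, -0.77 (SE 0.43, adjusted p = 0.311) at D3, -0.79 (SE 0.43, adjusted p = 0.190) at D7 and -4.46 (SE 0.43, adjusted p = 5.51e-08) at D10. The D1 call was lost without NanogBiD replicate 1 (adjusted p = 0.259) or NanogWT replicate 2 (adjusted p = 0.192).

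Fmod was far below MEF (38.2 and 25.0 FPKM) already at D0, with 2.11 and 0.901 FPKM for NanogBiD and 3.45 and 4.07 FPKM for NanogWT. By D7 it was at 0.118 and 0.129 against 0.155 and 0.613 FPKM. At D8 the single NanogBiD library had 3.11 FPKM and the NanogWT libraries 13.6 and 29.8 FPKM, and at D10 the levels were 3.49 and 2.70 against 20.1 and 22.3 FPKM. The step from D7 to D8 was thus visible in each combination, with NanogWT apart from NanogBiD. Aspn, a decorin relative that binds the same collagen site, stood at 66.2 and 32.5 FPKM in MEF, at 11.3 and 9.74 against 15.1 and 16.1 FPKM at D0, and at 0.0756 and 0.707 against 0.229 and 0.665 FPKM by D1. At D7 it was at 0.0953 and 0.105 FPKM with NanogBiD and was listed at 0 and at 0.149 FPKM with NanogWT. It recovered to 2.49 and 0.921 against 7.04 and 7.09 FPKM at D10.

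From D0 to D7 the change of Fmod was -1.11 (SE 0.28, limma adjusted p = 0.00274) with NanogBiD, a call lost without NanogBiD D0 replicate 1 (adjusted p = 0.0711), and -1.80 (SE 0.28, adjusted p = 2.76e-05) with NanogWT. The rise from D7 to D10 was 1.86 (SE 0.28, adjusted p = 2.51e-05) and 4.02 (SE 0.28, adjusted p = 4.35e-09), and the rises differed by -2.16 (SE 0.39, adjusted p = 0.000467). Aspn changed by -3.39 (SE 0.24, adjusted p = 1.19e-09) with NanogBiD and -3.95 (SE 0.24, adjusted p = 1.27e-10) with NanogWT from D0 to D7. Its rise to D10 was 1.24 (SE 0.24, adjusted p = 0.000420) with NanogBiD, under 2-fold without NanogBiD D10 replicate 1 (0.80, adjusted p = 0.0191), and 2.91 (SE 0.24, adjusted p = 3.69e-08) with NanogWT, with a difference between them of -1.68 (SE 0.34, adjusted p = 0.00130). At D10 Fmod differed between the combinations by -2.44 (SE 0.28, adjusted p = 4.28e-07) and Aspn by -1.64 (SE 0.24, adjusted p = 1.03e-05). Neither was called at D0, D1, D3 or D7, where the differences ranged from -0.97 to 0.04, but with a pseudocount of 0.1 Fmod was called lower at D3 (-1.71, adjusted p = 0.0296, against -0.34).

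Prelp, which anchors basement membranes to the matrix beneath, was the exception in the direction of the difference between the combinations. It was at 1.15 and 1.78 FPKM with NanogBiD and 0.760 and 1.74 FPKM with NanogWT at D0 and overlapped there. At D7 it was at 2.50 and 1.45 FPKM with NanogBiD and was at 0.158 FPKM or listed at 0 with NanogWT, and at D10 at 3.44 and 2.24 against 1.28 and 1.42 FPKM. The difference was 1.44 (SE 0.25, limma adjusted p = 0.000173) at D7 and 0.69 (SE 0.25, adjusted p = 0.0225, under 2-fold) at D10. From D7 to D10 Prelp rose with NanogWT by 1.13, a called change, and changed by 0.37 with NanogBiD, which was not called. The difference between these later changes was -0.75 (limma adjusted p = 0.124). From D0 to D7 Prelp fell by 1.03 (SE 0.25, adjusted p = 0.00223) with NanogWT, which was under 2-fold without NanogWT D0 replicate 2 (-0.71) or D7 replicate 2 (-0.92), and changed by 0.26 (SE 0.25, adjusted p = 0.425) with NanogBiD. These changes differed by 1.29 (SE 0.35, adjusted p = 0.0152), which was lost without NanogBiD D0 replicate 1 (adjusted p = 0.0728), NanogBiD D7 replicate 1 (adjusted p = 0.0849), NanogWT D0 replicate 2 (adjusted p = 0.0652) or NanogWT D7 replicate 2 (adjusted p = 0.0614).

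Omd stayed low throughout and did not pass the filter on low values (1 FPKM or more in 2 or more libraries of the time course), so it has no test. Its time-course maximum was 0.672 FPKM, in a NanogWT library of D12. In MEF it stood at 1.23 and 0.240 FPKM.

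**Figure D2:**
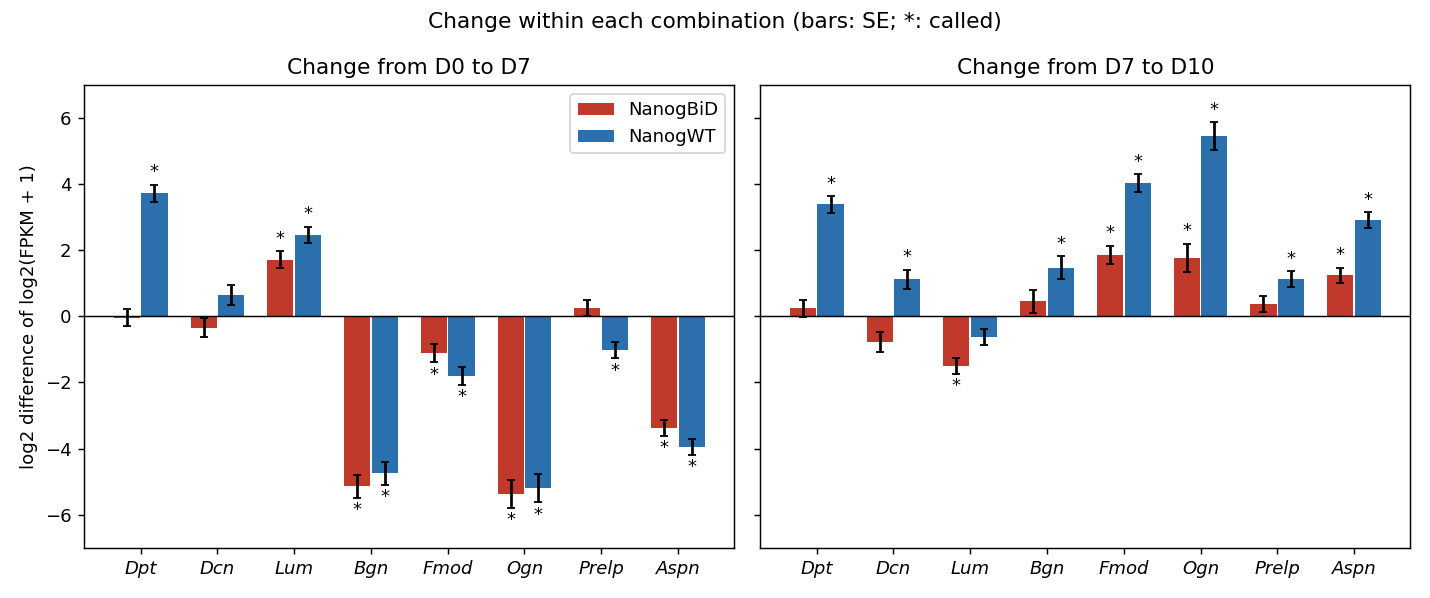
Change on the log2(FPKM + 1) scale of the 8 tested genes from D0 to D7 (left) and from D7 to D10 (right) within each combination, with SE as error bars and called changes starred. Bgn, Ogn and Aspn fell by similar amounts in both combinations to D7, and the NanogWT bars are the taller ones for Dpt, Fmod, Ogn and Aspn from D7 to D10.

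Counted over the 8 tested genes, a gene was called at an adjusted p under 0.05 and a difference of at least 2-fold. At D0 none was called (limma, with 3 at an unadjusted p under 0.05), where 0.76% of the 16842 tested genes were (0.422% higher and 0.338% lower). At D1, 4 were lower with NanogBiD (Dpt, Dcn, Lum and Ogn), where 0.962% of tested genes were called lower and 0.368% higher, and the count was 1 without NanogBiD replicate 1 or NanogWT replicate 2 and 2 without NanogBiD replicate 2 or NanogWT replicate 1. At D3, 4 were lower (Dpt, Dcn, Lum and Bgn) against 2.45% of tested genes (1.25% were called higher), and 2 without NanogBiD replicate 1 or NanogWT replicate 2. Fitted on the compared groups alone, 0 were called at D1 (6 at an unadjusted p under 0.05) and 0 at D3 (5 at an unadjusted p under 0.05), so these counts rest on the spread shared by all 16 groups. At D7, 3 were lower (Dpt, Lum and Bgn) against 4.65% and 1 was higher (Prelp) against 5.79%. At D10, 7 were lower against 12.3%, all but Prelp, and 15.4% of tested genes were called higher. Dpt, counted at D1, D3, D7 and D10, set the choice and passed the filter only through NanogWT libraries.

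On the days used for the choice, 5 of 8 were past the same limits in the lower direction at D5 (3.28% of tested genes, with 3.2% higher) and 7 of 8 at D12 (9.97% of tested genes, with 13.5% higher). These counts come from the same fit on values that chose Dpt, which is among them. They are given as a description and not read as a test. At D8, with 1 NanogBiD library and no test, 5 of the 8 were at least 2-fold lower on the log2(FPKM + 1) scale (10.1% of tested genes, with 13.7% at least 2-fold higher), from -1.01 for Bgn to -5.96 for Dpt, and Prelp was 1.76 higher. The median difference of the 8 genes was -0.58 at D0, -1.09 at D1, -0.95 at D3, -0.73 at D7 and -2.45 at D10, beside medians over all tested genes of 0.01, 0.02, 0.04, 0.08 and 0.10. The 9 fibroblast markers moved with them at D10, with 8 called lower and a median of -2.85, and less at D7, with 3 called lower and a median of -0.62. At D10, 3 of 4 smooth muscle markers were also lower (median -2.20), while all 4 epithelial (median 3.64) and all 8 pluripotency markers (median 3.51) were higher. Of 6 tested cartilage and tendon markers, 2 were higher and 0 lower at D10 (median 0.02). The part of these markers in the differences was not tested.

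**Figure D3:**
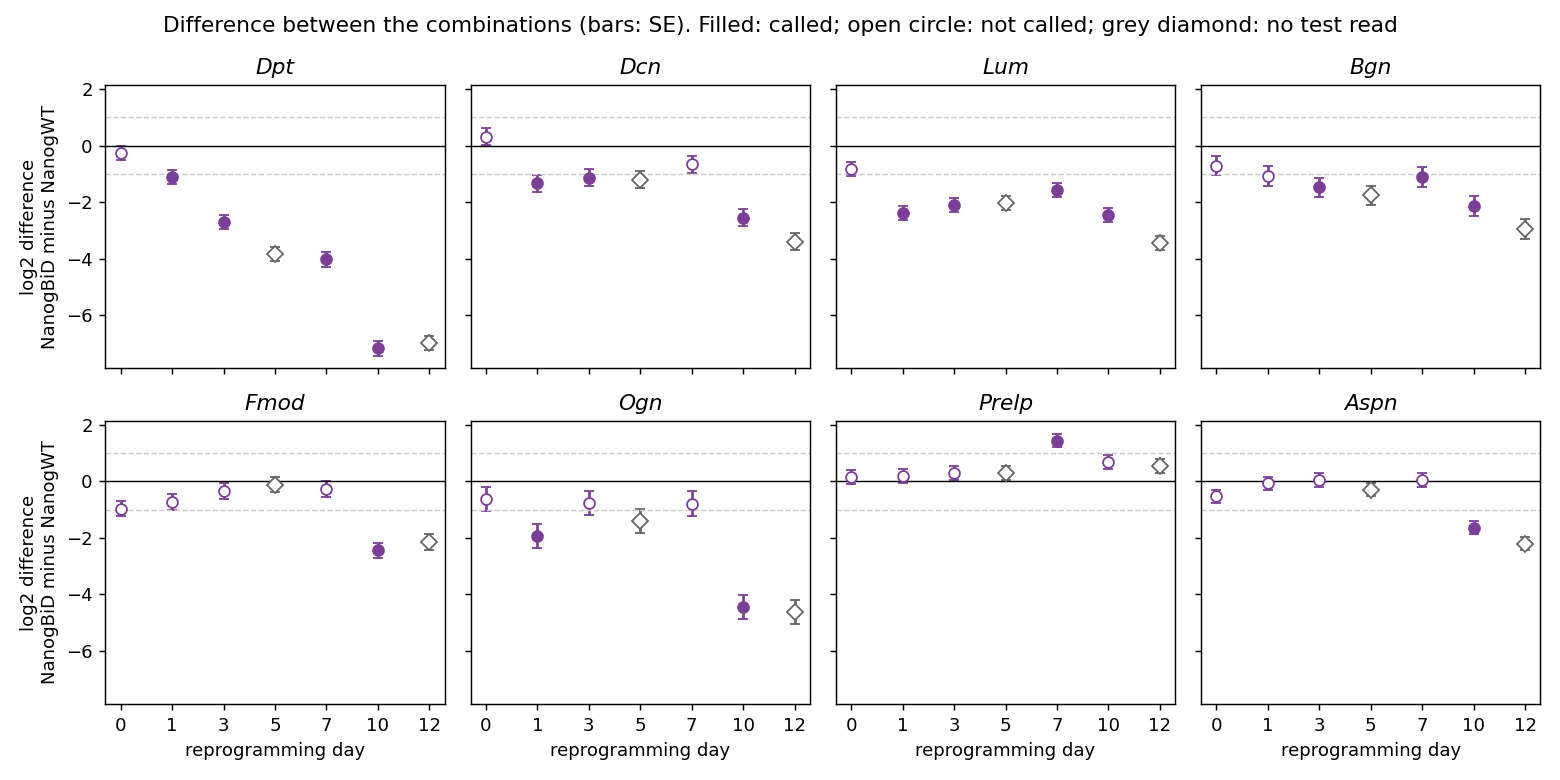
Difference between the combinations (NanogBiD minus NanogWT, log2(FPKM + 1) scale) by day for the 8 tested genes, with SE as error bars. Filled circles are called, open circles are not, and grey diamonds are D5 and D12, which chose Dpt and carry no test. The values for Dpt go from -0.26 at D0 to -7.18 at D10, and those for Prelp lie above 0.

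Over time within a combination, 4 of the 8 genes were called lower from D0 to D3 with NanogBiD (6.06% of tested genes, with 8.95% called higher) and 5 with NanogWT (5.11%), and 2 rose with NanogWT (9.55%). From D0 to D7, 4 were lower (6.15%) and 1 higher (12.7%) with NanogBiD, and 5 were lower (5.69%) and 2 higher (12.0%) with NanogWT. From D7 to D10, 3 rose (7.96%) and 1 fell (7.78%) with NanogBiD, whereas 7 rose (5.69%) and 0 fell (4.59%) with NanogWT (limma, with Lum, at -0.62, the other at an unadjusted p under 0.05). Tested as a difference of changes, 1 gene was lower (4.88%) and 1 higher (5.2%) for D0 to D7, and 5 were lower (8.39%, with 6.72% called higher) for D7 to D10. The intervals share the D7 libraries and are therefore not independent. Dpt, which passed the filter only through NanogWT libraries, is among the rises with NanogWT and the lower differences of changes. Fibroblast markers again moved alongside from D7 to D10, with 7 of 9 up in NanogWT and all 9 lower in the difference of changes, as did 3 of 4 smooth muscle markers in both, and 7 of 8 pluripotency markers rose with NanogWT. Of 6 tested cartilage and tendon markers, 0 rose and 1 fell with NanogWT.

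Some of the genes already differed from MEF at D0. Dcn was higher than in MEF (19.2 and 5.32 FPKM) by 1.51 (SE 0.39, limma adjusted p = 0.00654) with NanogBiD and 1.19 (SE 0.39, adjusted p = 0.0385) with NanogWT, neither of which held without MEF replicate 2 (0.67, adjusted p = 0.213, and 0.35, adjusted p = 0.621) nor with 1 library of D0 left out (NanogBiD replicate 1, adjusted p = 0.0504, and NanogWT replicates 1 and 2, adjusted p = 0.165 and 0.0542). Fmod was lower than in MEF, at -3.72 (SE 0.29, adjusted p = 8.70e-09) and -2.75 (SE 0.29, adjusted p = 9.57e-07). Aspn was lower too, at -2.04 (SE 0.28, adjusted p = 1.81e-05) and -1.51 (SE 0.28, adjusted p = 0.000735). Bgn was lower with NanogBiD (-1.36, SE 0.34, adjusted p = 0.00439) and not called with NanogWT (-0.65, SE 0.34, adjusted p = 0.201). In all, 1 of 8 genes was called higher (5.84% of tested genes) and 3 lower (5.51%) for NanogBiD, and 1 higher (3.71%) and 2 lower (3.03%) for NanogWT.

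The MEF replicates themselves differed in several of these genes. Lum was at 20.7 FPKM in the first and 1.63 FPKM in the second, Dpt at 2.57 and 0.391 FPKM, and Prelp at 5.60 and 0.992 FPKM. The first was the higher for all 9 genes, by little for Bgn. Against the second alone, both combinations at D0 had more Lum (1.83, adjusted p = 0.000223, and 2.65, adjusted p = 7.15e-06), and against the first alone NanogBiD had less (-1.22, adjusted p = 0.00725), so no direction is given for Lum.

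**Figure D4:**
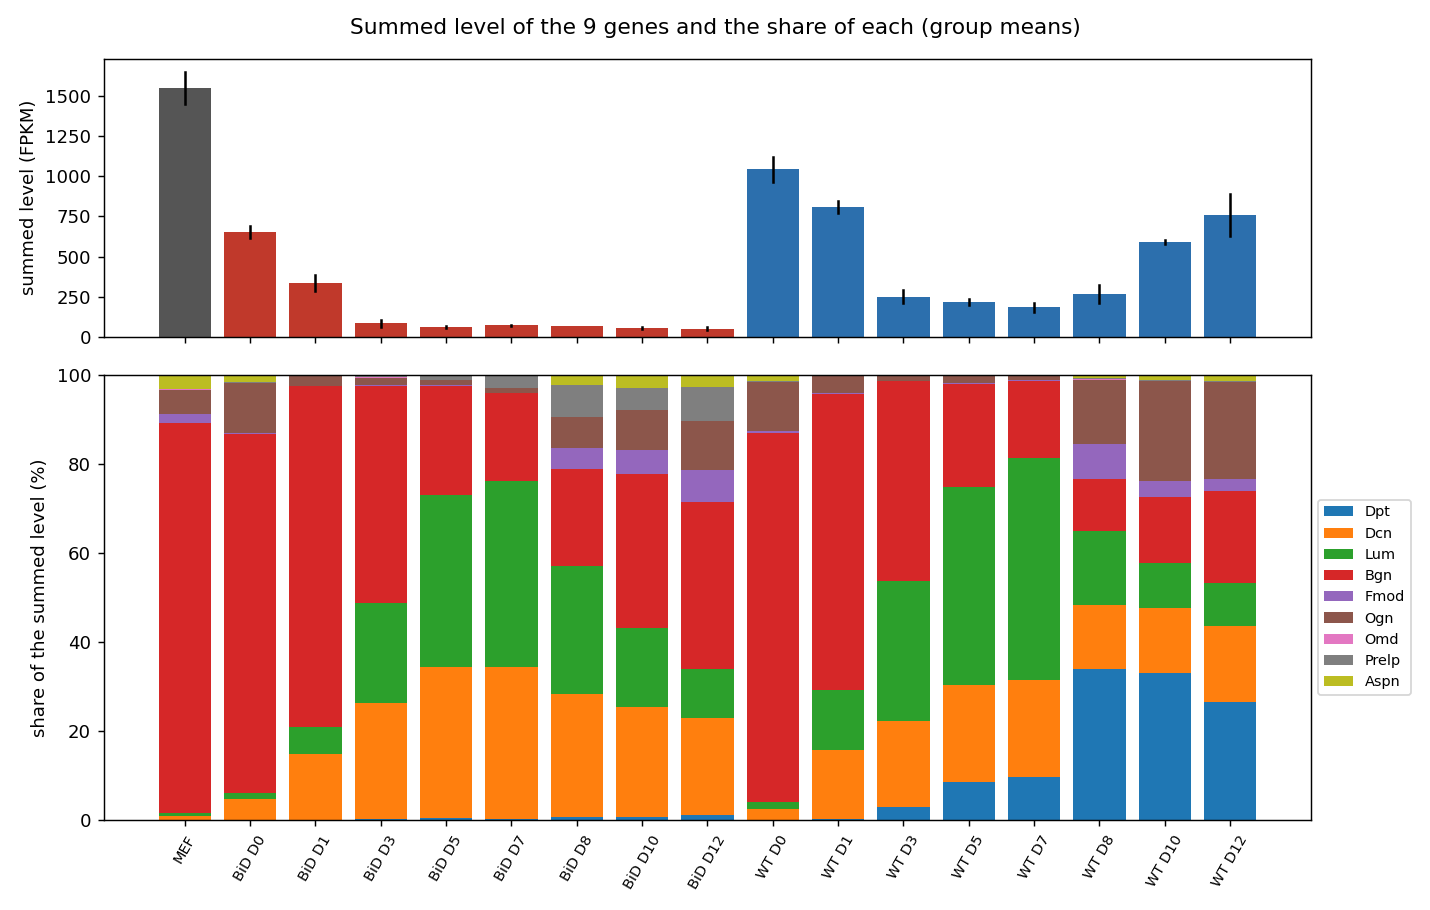
Summed FPKM of the 9 genes by group (upper, bars are means and vertical lines join the libraries of a group) and the mean share of each gene in that sum (lower), in MEF and along each combination. Bgn makes up most of the sum in MEF and at D0, and Dpt, near 33.1% of the sum for NanogWT at D10, is a thin band with NanogBiD.

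The sum of the 9 levels, comparable between genes because FPKM is per length, shows how the mixture changed. It was 1451 to 1648 FPKM in MEF, of which Bgn made up 82.5% to 92.7%. By D7 the sum was 70.1 to 72.4 FPKM with NanogBiD and 155 to 212 FPKM with NanogWT, and Lum was then the leading gene of both, at a mean of 41.8% and 49.9%. By D10 it was 49.7 to 63.0 FPKM with NanogBiD and 580 to 601 FPKM with NanogWT. In NanogWT at D10 the mean shares were 33.1% for Dpt, 22.3% for Ogn, 14.9% for Bgn and 14.7% for Dcn, a mixture unlike that of MEF, in which Dpt was at most 0.156%. In NanogBiD at D10 Bgn led with 34.5% and Dpt held 0.654%.

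Ordered by mean level over the 18 groups of the gene table, Dpt was highest in NanogWT at D12, D10 and D8, with D12 and D10 overlapping, then at D5 and D7, which also overlapped, and then at D3. MEF and NanogWT at D1 came next and overlapped. All NanogBiD groups and NanogWT at D0 followed, each overlapping its neighbour in the order, and mES was last. For Bgn the order ran from MEF to NanogWT at D0 and at D1, each apart from the one before, and NanogBiD at D0 overlapped NanogWT at D1. MEF also led for Aspn, apart from the next group, and for Fmod, where it overlapped NanogWT at D8.

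Likeness of profile was described by Pearson r over the 31 time-course libraries, which share the days and the depth of each combination. Closest to Dpt were Rapgef2 (r = 0.981), Gm35446 (0.976), Gm32569 (0.975), C1ra (0.972) and Grin3a (0.968). Closest to Dcn were Nqo1 (r = 0.879), Sh3bgrl2 (0.865), Hs3st1 (0.858), Thbs2 (0.841) and Adgrl3 (0.832), with Lum at rank 24 (0.782). Among the 9 themselves, Ogn and Aspn were the most alike (r = 0.887), Dpt and Bgn stood at r = -0.0021, and the lowest value was that of Lum and Prelp (r = -0.56).

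Related genes were counted from lists of their partners and of the enzymes that build their chains. Over all tested genes, 2.45% were called lower and 1.25% higher at D3, 4.65% and 5.79% at D7, and 12.3% and 15.4% at D10. With the D3 groups fitted alone no gene of the whole table was called at D3 (2613 at an unadjusted p under 0.05), so the D3 counts of these lists rest on the shared spread too. Of 20 tested collagens and fibril partners (3 of them, Col1a1, Col1a2 and Col3a1, also fibroblast markers), 9 were lower with NanogBiD and 1 higher (Lox, which cross-links collagen) at D3, 6 lower and 1 higher at D7, and 18 lower at D10 with a median of -2.44. From D7 to D10, 14 of these rose and 0 fell with NanogWT (median 1.68; 5.69% and 4.59% of all tested genes), while 0 rose and 5 fell with NanogBiD (median 0.07; 7.96% and 7.78%). Of 21 enzymes of chondroitin and dermatan sulphate synthesis, 3 were lower at D7 (Xylt1, which starts the chain, Csgalnact1 and Chsy3) and 8 at D10 (median -0.59), with none higher. Keratan sulphate enzymes, 7 tested, split evenly at D10, with B3gnt7 and Chst1 higher and Chst2 and St3gal1 lower. Of 5 other small leucine-rich proteoglycans tested, only Podn was called at D10, lower with NanogBiD. Of 18 tested genes listed as large and cell-surface proteoglycans, 2 were higher (Ncan and Gpc2) and 9 lower. That list also holds Bcam, an adhesion receptor and no proteoglycan, which was not called at D10.

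In established iPSC most of the 9 genes were at low levels. Transcript values summed per gene gave, for Bgn, 1259 and 1285 FPKM in MEF, 0.150 FPKM in mES, a range of 0 to 157 FPKM with a median of 2.87 FPKM in 6 NanogBiD iPSC samples, and 0.0649 to 44.2 FPKM with a median of 1.07 FPKM in 6 NanogWT iPSC samples. Dpt ranged from 0 to 1.54 FPKM (median 0.0260) and from 0 to 0.730 FPKM (median 0, with 4 of 6 listed at 0). Ogn ranged from 0 to 6.43 FPKM (median 0.0845) and from 0 to 2.03 FPKM (median 0.138), below its 121 and 36.7 FPKM in MEF. Against MEF 6 of the 8 tested genes were lower (18.8% of 13312 tested genes were called lower and 21.9% higher), from -2.49 (SE 0.51, limma adjusted p = 0.000757) for Lum to -8.35 (SE 1.21, adjusted p = 4.44e-05) for Bgn, while Dpt was at -0.95 (SE 0.32, adjusted p = 0.0182) and Prelp at -1.10 (SE 0.79, adjusted p = 0.224). Lum, Dcn and Dpt passed the filter on low values only because MEF samples counted towards it. MEF is the group where these genes were higher, so a lower value in iPSC was favoured in advance for them. Lum was under 2-fold without MEF replicate 1 (-0.99, adjusted p = 0.0172), Dpt was called without MEF replicate 2 (adjusted p = 0.00447) or without sample 9 of NanogBiD iPSC1 (adjusted p = 0.00417), and Prelp was called without that sample (adjusted p = 0.0344). Dpt was also called with rescaling to a common total (-1.70, adjusted p = 0.0106), quantile normalization (-1.01, adjusted p = 0.00335) or a pseudocount of 0.1 (-2.74, adjusted p = 0.0151).

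A pair of iPSC samples held most of what was left. Sample 9 of NanogBiD iPSC1 had 157 FPKM of Bgn, 13.6 FPKM of Prelp, 10.6 FPKM of Fmod, 6.43 FPKM of Ogn and 3.43 FPKM of Aspn, and sample 3 of NanogWT iPSC1 had 44.2 FPKM of Bgn and 4.28 FPKM of Prelp. Prelp in sample 9 was above both MEF samples (4.83 and 0.890 FPKM). The 9 fibroblast markers summed to 1349 FPKM in sample 9 and to 423 FPKM in sample 3, against 2.50 to 147 FPKM in the other 10 samples and 6358 to 7250 FPKM in MEF, and the 8 pluripotency markers to 1839 FPKM in sample 9 against 2693 to 5103 FPKM in the other 11. The part of these markers in the levels was not tested. In the iPSC2 samples Bgn was listed at 0 or reached 0.131 FPKM at most with NanogBiD and 1.14 FPKM at most with NanogWT.

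Between the combinations, with the label iPSC1 or iPSC2 as a covariate, 0 of the 5 members that passed the filter in iPSC (Bgn, Fmod, Ogn, Prelp and Aspn) and 0.0% of 12456 genes were called by limma, with 0 of the 5 and 201 genes at an unadjusted p under 0.05. The labels do not say what iPSC1 and iPSC2 stand for. Headers of the deposited values mark all iPSC1 samples with a later passage than all iPSC2 samples, so this label and the passage cannot be told apart. Bgn differed by 0.88 (SE 0.98, adjusted p = 0.999) and Fmod by 0.54 (SE 0.51, adjusted p = 0.999), NanogBiD minus NanogWT. Without sample 9 they stood at -0.00 and -0.07, and Ogn, Prelp and Aspn also turned from above to below 0 (-0.18, -0.22 and -0.18).

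**Figure D5:**
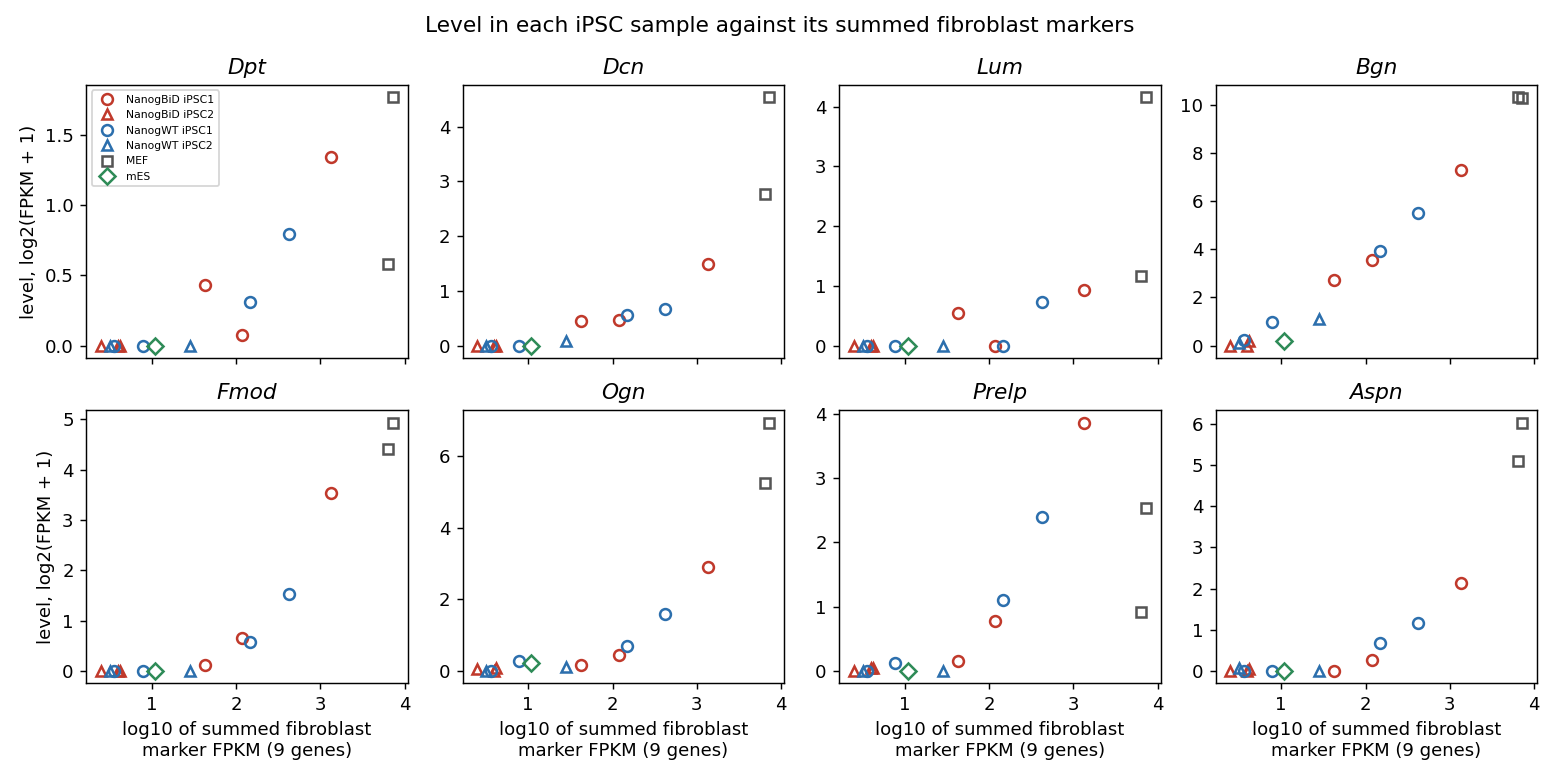
Level of the 8 genes other than Omd in each iPSC sample, as log2(FPKM + 1), against the log10 of its summed fibroblast marker FPKM, with MEF and mES. Most iPSC samples sit at the lower left of each panel, and sample 9 of NanogBiD iPSC1 is the iPSC point farthest to the right.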

How the data were processed

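RNA-seq values were analysed for 31 time-course libraries, MEF, mES and 12 iPSC samples. Per the study's methods and the submitters' processing notes, the authors trimmed reads with Trim Galore 0.6.4, aligned them to mm10 with HISAT2 2.2.1 and deposited FPKM values from StringTie 2.2.1. The annotation and any use of strand are not given in the sources used here. Genes came from one FPKM table, and iPSC values from a transcript FPKM table of 106520 rows summed by symbol to 35976 genes. FPKM are not counts, so limma 3.58.1 (R 4.3.3) was run on log2(FPKM + 1) with a trend, 2-sided, over genes at 1 FPKM or more in at least 2 libraries (16842 time-course genes). All 16 combination and day groups shared one spread, MEF was added as a further group for D0 against MEF, and p-values were Benjamini-Hochberg adjusted over all genes tested. The scripts were tested on simulated data. A gene was called at an adjusted p under 0.05 and 2-fold or more. Named genes were all 9 members, called genes of each list (up to 4 per comparison) and the 5 most like Dpt and Dcn. Members and lists were chosen with earlier results of these data known. Depth was read from the smallest steps of low values, and total reads are unknown. Alternatives were another pseudocount, no filter, rescaling to a common total, quantile normalization, no fold limit, a replicate block, the compared groups alone and leaving out each library.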

Additional observations from a re-analysis of the deposited data

Results flagged for a closer look

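In the 6 NanogBiD iPSC samples, sample 9 of iPSC1 stood far above the others, with a gap to the next sample that made up 0.772 of the group's range for Dpt, 0.793 for Dcn, 0.931 for Bgn, 0.946 for Fmod, 0.944 for Ogn, 0.948 for Prelp and 0.942 for Aspn. In the 6 NanogWT iPSC samples, sample 3 of iPSC1 was apart in the same way, at 0.67 for Dpt, 1 for Lum (the other 5 were listed at 0), 0.675 for Bgn, 0.746 for Fmod, 0.695 for Ogn and 0.734 for Prelp. The cut-off would mark about 1 in 20 groups by chance if levels were normally spread, which these skewed levels with many zeros are not, so the rate here is unknown. Where all other samples are listed at 0 the measure is 1 whatever the level, as for Lum at 0.659 FPKM. Values of genes in one sample are not independent. Under the cut-off were Lum (0.482) and Omd (0.0746) with NanogBiD, and Dcn (0.184), Aspn (0.507) and Omd (0.183) with NanogWT. The share of all genes past the same cut-off is not given.

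The change over time differed between the combinations (limma, log2 scale, NanogBiD minus NanogWT) by -3.77 for Dpt and 1.29 for Prelp from D0 to D7. From D7 to D10 it differed by -3.15 for Dpt, -1.89 for Dcn, -2.16 for Fmod, -3.67 for Ogn and -1.68 for Aspn. The values for Dpt are not independent of its choice, and it passed the filter only through NanogWT libraries. From D8 on the combination and the depth cannot be told apart.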

How the results depend on the processing

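Fitted on the compared groups alone, limma called 0 of the 8 tested members at D1, 0 at D3, 3 at D5 and, for the difference in change from D0 to D7, 1. The whole-table counts in that fit were 0 on each of D0, D1 and D3 (unadjusted p under 0.05 in 1294, 2526 and 2613 genes) and 1100 for the difference in change from D0 to D7. That fit holds fewer libraries, and the cause was not otherwise tested. It also ended the calls of Bgn at D7, Fmod at D3 and D7 against D0 and Aspn at D10 against D7 with NanogBiD, and Prelp at D3 and D7 against D0 with NanogWT. With 1 library left out, where a lone sample is assumed to vary like the other groups, the members called ranged from 1 to 2 at D1, 2 to 4 at D3, 3 to 4 at D5, 3 to 6 for NanogBiD D0 against MEF, 2 to 4 for NanogWT D0 against MEF and 1 to 2 for the difference in change from D0 to D7, while 7 of 8 were called at D10 in each case. The D5 counts describe a day used to choose Dpt.

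Values that changed sign with 1 library left out were uncalled ones. They ranged for Prelp at D0 from -0.16 to 0.48 and for Aspn from -0.41 to 0.25 at D1, -0.13 to 0.21 at D3 and -0.063 to 0.14 at D7. Within NanogBiD, Dpt ranged from -0.015 to 0.26 at D3 and -0.18 to 0.089 at D7 against D0, Prelp from -0.00052 to 0.51 at D7 against D0, and the difference in change of Ogn from D0 to D7 from -0.65 to 0.32. Against MEF, NanogBiD at D0 ranged from -1.22 to 1.83 for Lum, -0.90 to 0.82 for Ogn and -1.43 to 0.30 for Prelp, and NanogWT from -1.33 to 0.024 for Dpt, -0.39 to 2.65 for Lum, -0.28 to 1.44 for Ogn and -1.59 to 0.14 for Prelp. Between iPSC, the range was -0.0016 to 1.32 for Bgn, -0.073 to 0.83 for Fmod, -0.18 to 0.54 for Ogn, -0.22 to 0.76 for Prelp and -0.18 to 0.38 for Aspn, with the low end always without sample 9. Quantile normalization turned Aspn at D7 to -0.033, and within NanogBiD Dpt at D3 against D0 to -0.069 and Prelp at D7 against D0 to -0.13.

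Replicate numbers did not pair the libraries (correlation of same-numbered deviations -0.06 to 0.39 over 7 days). With a replicate block, Bgn gained calls at D1 (-1.07, adjusted p = 0.0149) and for the difference in change from D7 to D10 (-1.01, adjusted p = 0.0351), and no other member call changed. A pseudocount of 0.1 ended the call of Fmod in that difference (adjusted p = 0.0687) and of Aspn for NanogWT D0 against MEF (adjusted p = 0.075). It added 6 calls (Fmod at D3, Lum and Prelp at D3 against D0 with NanogBiD, Prelp in the D7 to D10 difference at -2.65, adjusted p = 0.0238, and Dpt for NanogBiD D0 and iPSC against MEF). Rescaling to a common total added 5 (the same for Prelp and Dpt, with Prelp in the D7 to D10 difference at -1.49, adjusted p = 0.045, and Dcn at D3 against D0 with NanogWT). Rescaling, like no filter (adjusted p = 0.0768), ended that of Dcn for NanogWT D0 against MEF (adjusted p = 0.0597). Called members kept their direction under both other scalings. A spread from D0 to D7 libraries alone, chosen after seeing the data, left 72 member values and their calls as they were.

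Without a fold limit, genes called rose from 128 to 321 at D0, 224 to 551 at D1, 623 to 1709 at D3, 1091 to 2755 at D5, 1758 to 4779 at D7, 4676 to 9358 at D10 and 3946 to 8546 at D12. Within NanogBiD they rose from 2528 to 5976 at D3 and 3171 to 7381 at D7 against D0 and from 2651 to 6610 at D10 against D7, and within NanogWT from 2468 to 5775, 2977 to 6521 and 1732 to 3958. The differences in change went from 1698 to 2684 and from 2545 to 4110, D0 against MEF from 1912 to 5038 and 1136 to 3264, and iPSC against MEF from 5420 to 9508. A pseudocount of 0.1 gave 196 at D0, 1011 at D3, 1689 at D5 and 2716 at D7, 3849 and 4846 at D3 and D7 against D0 with NanogBiD, 3761 at D3 against D0 with NanogWT, and 3035 and 1962 for D0 against MEF. The compared groups alone gave 1623 and 1450 at D3 against D0, and rescaling gave 937 at D3. Leaving out NanogWT D0 replicate 2 gave 654 at D0, and leaving out NanogBiD D1 replicate 1 gave 136 at D1. Quantile normalization moved the split of calls at D7 against D0 from 2135 higher and 1036 lower to 1386 and 1497 with NanogBiD, and from 2018 and 959 to 1545 and 1292 with NanogWT, as the median of all genes moved by -0.25 and -0.17. At D3 against D0 it moved 1508 and 1020 to 1136 and 1205 with NanogBiD and 1608 and 860 to 1283 and 1052 with NanogWT (median -0.14 and -0.12), and rescaling moved 625 and 511 to 704 and 954 for NanogWT D0 against MEF (median -0.11). FPKM carry no read totals and give no counting interval.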
